A study of Mus musculus with 6 samples.

Results

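p53 (gene Trp53) and 9 genes that it is known to switch on were followed in hepatocytes, the parenchymal cells of the liver, from mice with and without Bim. The 10 genes were chosen by name (Trp53, Cdkn1a, Mdm2, Ccng1, Gdf15, Trp53inp1, Sesn1, Btg2, Phlda3 and Eda2r), all 10 were found, and they stand among 48,353 annotated genes. There were 3 Bim knock-out and 3 wild-type libraries of polyadenylated RNA, all from the C57BL/6 strain and, per the protocol, male mice, with hepatocytes freed by collagenase perfusion. In the knock-out, mice with floxed Bim alleles had been crossed with Alb-Cre mice, in which the albumin promoter drives the Cre recombinase in hepatocytes. Whether the wild-type mice carried floxed alleles or Cre is not given in the labels, nor is the diet (regular chow or high-fat) or the age of each sample. Bim (symbol Bcl2l11) encodes a pro-apoptotic protein of the BCL-2 family. Nothing in the labels ties each sample to an animal of its own. The p-values therefore measure only how far these samples spread, and that spread could be technical.

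p53 is a transcription factor that stress such as DNA damage stabilises. It binds DNA as a tetramer at a site of 2 adjoining half-sites of 10 bases each and raises the transcription of genes that stop the cell cycle, repair DNA, restrain growth signals or start cell death. Mdm2, itself a target, ubiquitinates p53 for destruction and so closes a feedback loop. In liver these genes are known for their response to genotoxic injury.

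Each transcript carried an estimated read number and an RPKM value (reads scaled to transcript length and library size), and both were summed per gene; RPM stands for reads scaled to the library total alone. The libraries held 25,335,211 to 31,130,519 estimated reads. Hepatocyte markers (8 genes) came to 48,648 to 67,368 RPM in knock-out libraries and 34,154, 71,819 and 38,583 in wild-type replicates 1, 2 and 3. Markers of macrophages (10 genes) came to 110.7 to 179 RPM in knock-out libraries, and to 6157, 192.2 and 162.2 in wild-type replicates 1, 2 and 3. All 5 stellate cell markers and 4 of 6 endothelial markers were listed at 0 in all 6 libraries. The endothelial markers Cdh5 and Stab2 were read in wild-type replicate 1 alone (2154 and 994 reads), as was the blood cell marker Ptprc (10,202 reads). Biliary markers (5 genes) came to 26.4 to 562.1 RPM in knock-out libraries and 397.5, 147 and 168.1 in wild-type replicates 1, 2 and 3. Most of this was Spp1 alone, at 114.9 to 543.6 RPM where it was read and listed at 0 in knock-out replicate 1. Sox9 had 17.1 to 31.4 RPM and Epcam at most 0.64, and Krt19 and Krt7 were at 0 in all 6 libraries. For well-read genes (median above 100 reads) whose locus has 2 or more transcripts, 18.59% of values were exactly 0, and none of 12,798 values (0) at loci with 1 transcript was, so an exact 0 may be an estimate that was not made. Genes with zeros are therefore given library by library, and no limit of detection is attached to a 0.

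Of the 60 values of the 10 genes in 6 libraries, 42 were above 0. Zeros made up 12 of 30 values in knock-out libraries and 6 of 30 in wild-type libraries, which was not tested. Of all 48,353 annotated genes, 10,486 to 10,871 were above 0 in knock-out libraries and 10,992 to 11,255 in wild-type libraries. Cdkn1a, Ccng1, Trp53inp1 and Btg2 were above 0 in all 6 libraries, and 9 of the 10 genes had a mean of at least 1 RPKM, all but Sesn1. Of these 9, 0 differed between the groups in limma after Benjamini-Hochberg adjustment over all 11,021 genes tested, where 0.789% of genes were called, and none (0) had an unadjusted p below 0.05. Among the 5538 tested genes above 0 in every library, 0 of the 4 members and 0% of all genes were called, and 130 genes had an unadjusted p below 0.05, none of them a member (0).

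The stretches of DNA through which p53 is known to act were looked for at the starts of these genes, and are shown because Cdkn1a and Ccng1, read in every library, carry a near-perfect site there. RefSeq promoter windows on GRCm38.p6 (250 bases before to 50 after a start, 300 in all) were found for 9 of the 10 genes, all but Trp53inp1, in 12 windows. The p53 half-site consensus of 10 bases reads the same on both strands and had an exact match in 5 of the 12 windows, against 8.36% of all 32,851 windows. A full site of 20 bases, both half-sites without a spacer, was matched with at most 1 mismatch in 2 of the 12 windows, against 0.088% of all windows, and with at most 3 mismatches in 4 of the 12, against 6.292%. The genes were chosen as known p53 targets, so this describes them and is no test. The 4 best sites are shown so that they can be compared, with bases that match the consensus in capitals and the others in lower case.
Cdkn1a: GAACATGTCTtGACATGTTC
Ccng1: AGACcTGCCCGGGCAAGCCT
Trp53: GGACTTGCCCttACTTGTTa
Sesn1: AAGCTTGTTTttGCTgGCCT

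The Cdkn1a site lies at chr17:29090928-29090947 on the plus strand, its first base 51 bases before the upstream of 2 RefSeq starts. That start is not the one the reads were assigned to: Cdkn1a-201 begins 2844 bases downstream of the site. The best full site in the window of the second start had 5 mismatches. The Ccng1 site lies at chr11:40755462-40755481 on the minus strand, 195 bases before the RefSeq start and 170 bases before the start of Ccng1-201, which took most reads of the gene. Both windows are given in full, from chr17:29090729-29091028 and chr11:40755237-40755536, with the 20-base site in capitals.
Cdkn1a: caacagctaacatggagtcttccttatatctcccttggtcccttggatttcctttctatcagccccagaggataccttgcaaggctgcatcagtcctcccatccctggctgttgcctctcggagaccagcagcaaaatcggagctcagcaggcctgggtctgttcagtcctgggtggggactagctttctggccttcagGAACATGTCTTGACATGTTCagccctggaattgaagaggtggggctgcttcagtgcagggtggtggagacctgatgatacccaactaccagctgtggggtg
Ccng1: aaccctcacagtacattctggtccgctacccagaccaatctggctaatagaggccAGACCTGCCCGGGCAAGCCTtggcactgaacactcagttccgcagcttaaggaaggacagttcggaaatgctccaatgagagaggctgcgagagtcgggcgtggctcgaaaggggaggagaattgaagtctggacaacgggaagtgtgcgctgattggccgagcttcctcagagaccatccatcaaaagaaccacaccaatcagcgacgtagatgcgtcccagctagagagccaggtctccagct
Windows of Btg2, Phlda3, Gdf15 and Eda2r held no exact half-site, which says only that these letters are absent from those windows. The Sesn1 site shown lies at chr10:41887266-41887285, whereas Sesn1-202, the transcript that took its reads, begins at 41810574. The best full site in the window of that start had 6 mismatches.

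**Figure D1:**
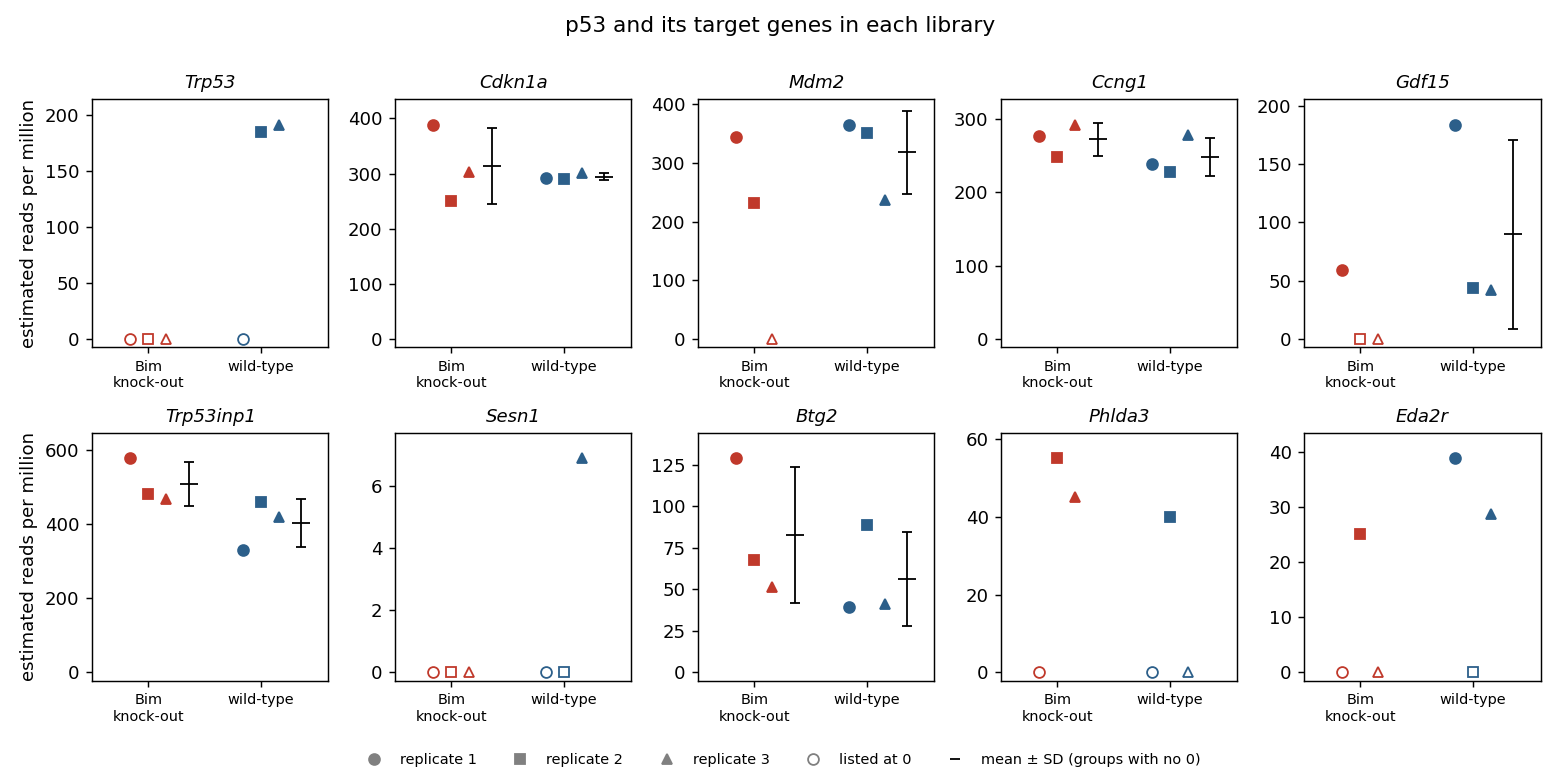
Estimated reads scaled to the library total (RPM, vertical axis) for p53 and its 9 targets in 3 Bim knock-out and 3 wild-type libraries; marker shape gives the replicate, open markers are values listed at 0, and bars give mean ± SD for groups without a 0. Cdkn1a, Ccng1, Trp53inp1 and Btg2 are read in all 6 libraries, while Trp53 is above 0 in wild-type replicates 2 and 3 alone.

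Trp53 itself (ENSMUSG00000059552, chromosome 11, 69580359 to 69591873, plus strand of GRCm38) had no value above 0 in any of the 3 knock-out libraries and had 0, 5748 and 5370 estimated reads in wild-type replicates 1, 2 and 3. All of its reads were assigned to Trp53-202, a coding transcript of 11 exons, 1 of 6 annotated. The groups overlap at 0. In such bulk samples fewer cells of a type and less RNA per cell cannot be told apart. Bcl2l11, the targeted gene, was read in the same libraries: it was at 0 in each knock-out library and had 0, 680 and 478 reads in wild-type replicates 1, 2 and 3. Of all tested genes, 85 (0.77%) had this pattern of a 0 in every knock-out library and in wild-type replicate 1 with reads in the other 2 libraries. More broadly, 324 genes were at 0 in all knock-out libraries and read in at least 2 wild-type libraries, and 236 were at 0 in all wild-type libraries and read in at least 2 knock-out libraries. On the log2(RPKM + 1) scale the fitted difference of Trp53 was -4.79 (SE 2.16; adjusted p = 0.941, limma), and its size depends on the pseudocount. Without wild-type replicate 1 the difference of Trp53 was -7.18 (adjusted p = 0.00308, limma), in a fit where 1.88% of genes (207) were called and 205 of these 207 had a library listed at 0.

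Mdm2 (chromosome 10, 117688888 to 117710758, minus strand), the ubiquitin ligase that removes p53, had 9716, 6418 and 0 estimated reads in knock-out replicates 1, 2 and 3, against 10,314, 10,953 and 6676 in wild-type replicates 1, 2 and 3. Apart from the 0 in knock-out replicate 3, the knock-out values lie close to the wild-type range, with knock-out replicate 2 just below the lowest wild-type library. The transcript that took the reads differed between libraries. In knock-out replicate 2 all reads went to Mdm2-204, a retained-intron transcript of 919 bases, and in the other 4 libraries with reads they all went to Mdm2-209, a transcript of 2769 bases annotated for nonsense-mediated decay. Knock-out replicate 2 therefore had the highest RPKM of Mdm2 (352.4, against 117.4 to 180.6 in the wild-type libraries) with the lowest read number above 0. The fitted difference of Mdm2 on the log2(RPKM + 1) scale was -1.99 (SE 2.41; limma adjusted p = 0.943) and turned to 0.66 where zeros were taken as missing.

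Cdkn1a (ENSMUSG00000023067, chromosome 17, 29090979 to 29100722, plus strand) encodes the cyclin-dependent kinase inhibitor p21, through which p53 halts the cell cycle. It had 283.8, 183.1 and 208.1 RPKM in knock-out replicates 1 to 3, against 205.7, 242.1 and 216.5 RPKM in wild-type replicates 1 to 3. The wild-type values fall inside the knock-out range. The mean was 225 ± 52.4 RPKM across knock-out libraries, against 221.4 ± 18.7 RPKM across wild-type libraries (SD; n = 3 a group). The difference on the log2(RPKM + 1) scale was 0.00 (SE 0.20; limma adjusted p = 0.999), and the 95% interval ran from 0.715-fold to 1.40-fold. In RPM Cdkn1a had 388.2, 250.5 and 302 in knock-out libraries and 291.2, 290.2 and 301.8 in wild-type libraries, a spread of 69.6 in knock-out against 6.42 in wild-type (SD; n = 3 a group), which was not tested. Nearly all reads went to Cdkn1a-201, a coding transcript of 3 exons, and in wild-type replicate 2 9.8% went to a shorter transcript of 857 bases.

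Ccng1 (ENSMUSG00000020326, chromosome 11, 40748552 to 40755311, minus strand) encodes cyclin G1, which works with protein phosphatase 2A and acts on Mdm2. It had 276.8, 248.4 and 292.2 RPM in knock-out replicates 1 to 3, against 238.9, 227.9 and 277.8 in wild-type replicates 1 to 3. The groups overlap, since wild-type replicate 3 stands above knock-out replicates 1 and 2. On this scale the difference in log2 was 0.14 (SE 0.12; limma adjusted p = 0.999), with a 95% interval of 0.897-fold to 1.35-fold. In RPKM the means were 128.2 ± 41.6 across knock-out libraries, against 97.5 ± 9.47 across wild-type libraries (SD; n = 3 a group), and the difference of Ccng1 was 0.35 (SE 0.24; limma adjusted p = 0.996). The larger knock-out mean in RPKM rests on knock-out replicate 3, where 17.9% of the reads were assigned to Ccng1-202, a transcript of 804 bases, beside Ccng1-201 with 3512 bases. Without that library the difference in RPKM was 0.10.

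Trp53inp1 (ENSMUSG00000028211, chromosome 4, 11156431 to 11174379, plus strand) encodes a stress-induced nuclear protein that promotes p53 activity and takes part in autophagy. In RPM it had 576.2, 480.1 and 467.6 in knock-out replicates 1 to 3, against 330.2, 458.7 and 417.8 in wild-type replicates 1 to 3. Every knock-out library stood above every wild-type library, at 508 ± 59.4 across knock-out libraries, against 402.2 ± 65.6 across wild-type libraries (SD; n = 3 a group). It was 1 of 4 members without overlap on this scale, and 3.81% of all 5538 genes were without overlap, 3.07% of all genes with knock-out higher. The exact two-sided permutation test gave p = 0.1, the smallest that 3 against 3 libraries allow. The difference in log2(RPM + 1) was 0.34 (SE 0.16; limma adjusted p = 0.999), a ratio of 1.27 with a 95% interval from 0.975 to 1.65. Without 1 library the difference ran from 0.21 to 0.44, the highest without wild-type replicate 2. It was 0.21 (SE 0.15) without wild-type replicate 1, the library with the most macrophage marker reads. The part of those marker reads in the difference was not tested.

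In RPKM the groups of the same gene overlapped, as they did for all 4 members read in every library: 0 of 4 were without overlap, where 5.94% of all genes were, 2.98% with knock-out higher. Trp53inp1 had 397.1, 123.4 and 283 RPKM in knock-out replicates 1 to 3, against 82, 630.8 and 105.4 RPKM in wild-type replicates 1 to 3. The reads were assigned to 3 transcripts of unequal length, all annotated as processed transcripts. Trp53inp1-202 with 5432 bases took all reads in knock-out replicate 2 and wild-type replicates 1 and 3. Trp53inp1-204 with 1674 bases took 74.9% and 66.7% in knock-out replicates 1 and 3, and a transcript of 587 bases took 51.6% in wild-type replicate 2. The difference in RPKM was 0.44 on the log2 scale (SE 0.86; limma adjusted p = 0.996), with a 95% interval from 0.315-fold to 5.89-fold. It was -0.10 without wild-type replicate 1 and 1.36 without wild-type replicate 2, so that its direction turned with the library left out. The 3 genes whose log2(RPKM + 1) was most like that of Trp53inp1 over the 6 libraries were Myh10 (Pearson r = 0.994), Fam83c (0.987) and Cpb2 (0.976), given as a description. In RPM the r of Myh10 with Trp53inp1 was -0.002, that of Fam83c 0.57 and that of Cpb2 0.45.

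**Figure D2:**
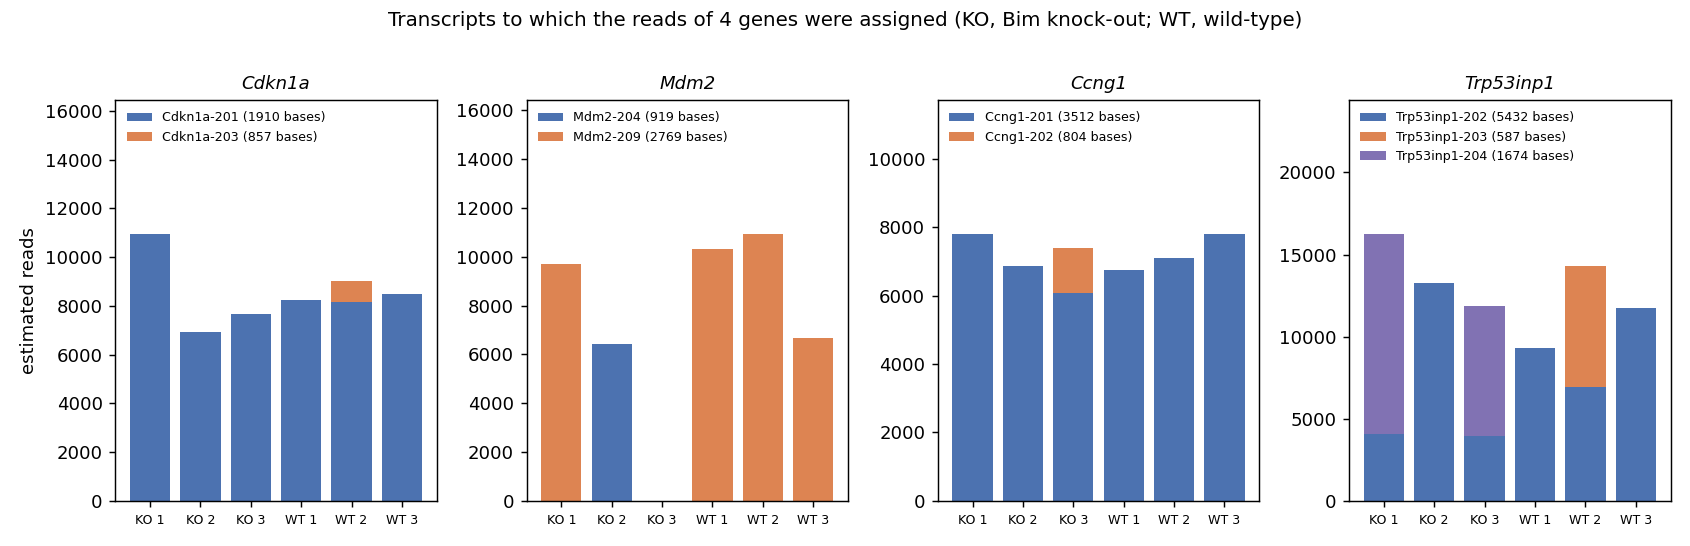
Estimated reads (vertical axis) of Cdkn1a, Mdm2, Ccng1 and Trp53inp1 in knock-out (KO) and wild-type (WT) libraries, coloured by the annotated transcript to which they were assigned. Mdm2 reads are assigned to Mdm2-204 in knock-out replicate 2 and to Mdm2-209 in the other libraries with reads, and Trp53inp1 reads are split among 3 transcripts of 587 to 5432 bases.

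**Figure D3:**
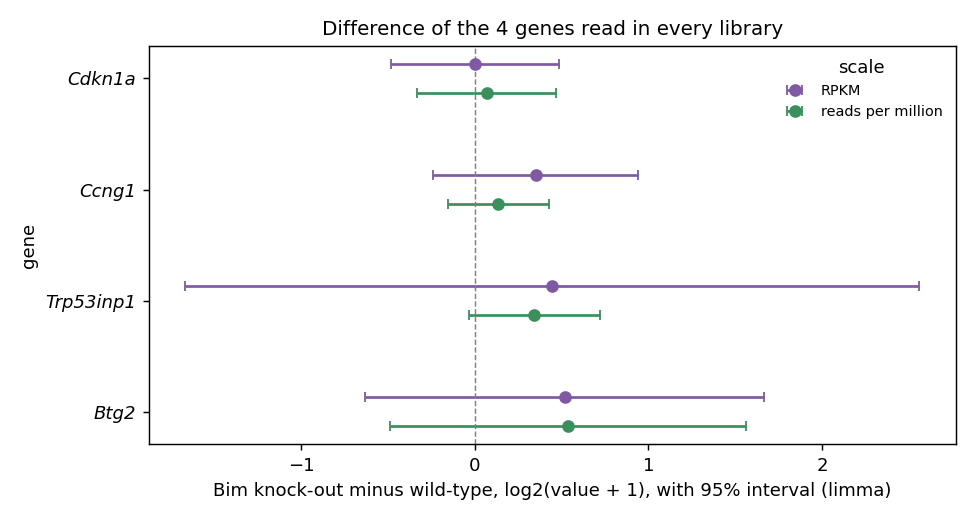
Difference between Bim knock-out and wild-type on the log2(value + 1) scale (horizontal axis) for the 4 genes read in every library, in RPKM and in RPM; points are limma estimates and bars their 95% intervals. Every interval spans 0, and the interval of Trp53inp1 is far wider in RPKM than in RPM.

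Btg2 (ENSMUSG00000020423, chromosome 1, 134075170 to 134079120, minus strand) encodes an antiproliferative protein that recruits the CCR4-NOT deadenylase and is also an immediate early gene. It is the 1 member with a single annotated transcript, so its values do not depend on a split among transcripts. It had 128.8, 67.3 and 51.2 RPM in knock-out replicates 1 to 3, against 39, 88.9 and 41.1 in wild-type replicates 1 to 3. Wild-type replicate 2 lies above 2 of the 3 knock-out libraries. The means were 82.4 ± 40.9 RPM across knock-out libraries, against 56.3 ± 28.2 across wild-type libraries (SD; n = 3 a group), and the exact two-sided permutation test gave p = 0.5. The difference in log2(RPKM + 1) was 0.52 (SE 0.47; limma adjusted p = 0.996), with a 95% interval from 0.646-fold to 3.18-fold. It was 0.14 without knock-out replicate 1, the highest library, and 0.91 without wild-type replicate 2.

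Per transcript length and averaged over the 6 libraries, Trp53inp1 had 270.3 RPKM, Cdkn1a 223.2, Ccng1 112.8 and Btg2 35. Trp53inp1 and Cdkn1a do not separate, since the range of Trp53inp1 includes every value of Cdkn1a. The mean of Trp53inp1 and its place among genes depend on the transcript to which its reads were assigned. In knock-out replicate 2 and wild-type replicates 1 and 3, all its reads went to the transcript of 5432 bases. There Trp53inp1 had 123.4, 82 and 105.4 RPKM, below every value of Cdkn1a. In knock-out replicates 1 and 3 and wild-type replicate 2, shorter transcripts took most reads, and it had 397.1, 283 and 630.8 RPKM. The lowest value of Cdkn1a (183.1) is above the highest of Ccng1 (175.7), and the lowest of Ccng1 (91.7) is above the highest of Btg2 (65.6). These means lie above those of 93.1%, 91.8%, 85.7% and 65.4% of the 5538 genes read in every library.

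The other 4 targets were read in some libraries only. Gdf15 (chromosome 8, 70629393 to 70632456, minus strand), a stress hormone that reduces appetite through the receptor GFRAL and is also made by macrophages and induced in the integrated stress response, had 1662, 0 and 0 reads in knock-out replicates 1 to 3, against 5192, 1356 and 1190 in wild-type replicates 1 to 3. The highest value is that of wild-type replicate 1, which also held the most macrophage marker reads (6157 RPM, against 110.7 to 192.2 in the other 5 libraries). Their part in it was not tested. Knock-out replicate 1 lies within the wild-type range, and Gdf15 had a limma adjusted p of 0.941.

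Phlda3 (chromosome 1, 135766119 to 135769136, plus strand), which competes with AKT for membrane lipids and so dampens AKT signalling, had 0, 1524 and 1142 reads in knock-out replicates 1 to 3, against 0, 1244 and 0 in wild-type replicates 1 to 3. Where it was read, the 3 values were of similar size in both groups. Eda2r (chromosome X, 97333840 to 97377216, minus strand), a receptor of the tumour necrosis factor receptor family, had 0, 696 and 0 reads in knock-out replicates 1 to 3, against 1100, 0 and 810 in wild-type replicates 1 to 3. Sesn1 (chromosome 10, 41810574 to 41908424, plus strand), a sestrin that restrains mTORC1, was at 0 in all knock-out libraries and had 0, 0 and 194 reads in wild-type replicates 1 to 3. With zeros in both groups for each of the 3 genes, the groups overlap. Phlda3 and Eda2r had a limma adjusted p of 0.943 each, and Sesn1 did not reach 1 RPKM on average.

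Beside the members, 68 other genes were examined: regulators of p53, further p53 targets, immediate early genes and genes of the integrated stress response. Of these, 53 were tested and 0 were called in limma, and 0 had an unadjusted p below 0.05. In the fit of genes above 0 in every library 26 were tested, with 0 called and 0 at an unadjusted p below 0.05. Over the 9 members tested the median difference on the log2(RPKM + 1) scale, fitted with the zeros, was 0.00, with 5 of 9 positive, against -0.01 over all 11,021 genes. Over the 4 members read in every library it was 0.40, against 0.00 over all 5538 genes. That median was 0.24 in log2(RPM + 1). In log2(RPKM + 1) it ran, without 1 library, from 0.11 (without knock-out replicate 1) to 0.61 (without wild-type replicate 2), and was 0.12 without wild-type replicate 1. For the other lists, too, the median over all tested genes includes genes with zeros.

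Of the regulators of p53, 16 were tested, 0 passed as higher and 0 as lower, and the median difference on the log2(RPKM + 1) scale was 0.03 over the 16 and -0.05 over the 8 above 0 in every library. Usp7, the deubiquitinase of Mdm2 and p53, had 176.2 ± 18.8 RPM across knock-out libraries, against 179.8 ± 6.98 across wild-type libraries (SD; n = 3 a group), and Rchy1, another ubiquitin ligase for p53, 51.1 ± 3.55 and 47 ± 4.6 in the same order. Daxx, a chromatin factor that binds Mdm2, had 4630, 1136 and 1590 reads in knock-out libraries, against 1736, 5172 and 1954 in wild-type libraries. Mdm4, the partner of Mdm2, was read in knock-out replicate 1 (3517 reads) and wild-type replicate 3 (2923 reads) alone, and Atm, Cdkn2a, Trp63 and Trp73 were at 0 in all 6 libraries. Mdm4, Atm, Cdkn2a, Trp63 and Trp73 are named after their values were seen.

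Other targets of p53 in cell cycle arrest and DNA repair gave 0 higher and 0 lower among 11 tested, with a median difference of 0.08 over the 11 and -0.01 over the 7 above 0 in every library. Aen, an apoptosis-enhancing nuclease, had 193.8, 169.2 and 175.4 RPM in knock-out libraries, against 158.6, 167 and 150.4 in wild-type libraries. Its groups do not overlap on this scale, which held for 1 of the 26 genes against 3.81% of all genes, and limma gave an adjusted p of 0.999. In RPKM the difference of Aen was -1.06 (SE 0.82; limma adjusted p = 0.996), so that the 2 scales point in opposite directions for this gene. Wild-type replicate 3 had 746.6 RPKM of Aen, against 61.2 to 227.4 in the other libraries, with the lowest read number (4231). Without that library the difference in RPKM was -0.23. Sfn, the 14-3-3 sigma protein, had 12.5 ± 4.77 RPM across knock-out libraries, against 13.9 ± 2.94 across wild-type libraries, and Ddb2, a sensor of ultraviolet DNA damage, 15.2 ± 3.07 and 14 ± 4.17 in the same order (SD; n = 3 a group).

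Targets in cell death gave 0 higher and 0 lower among 6 tested, with a median difference of 0.27 over the 6 and 0.12 over the 2 in the fit of genes read in every library. Perp, a membrane protein of desmosomes and of p53-dependent death, had 120.1 ± 15.8 RPM across knock-out libraries, against 110 ± 20 across wild-type libraries, and the death receptor Tnfrsf10b 17.9 ± 2.16 and 16.4 ± 2.62 in the same order (SD; n = 3 a group). Targets in metabolism and signalling gave 0 higher and 0 lower among 7 tested, with a median difference of -0.02. Of these, Ddit4, an inhibitor of mTORC1, was the 1 above 0 in every library, at 87.5 ± 23.4 RPM across knock-out libraries, against 65.9 ± 20.6 across wild-type libraries (SD; n = 3 a group). The difference of Ddit4 in log2(RPKM + 1) was 0.41 with all libraries. Without 1 library it ran from 0.10 (without wild-type replicate 1) to 0.61 (without knock-out replicate 2).

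The immediate early genes, which tissue dissociation is known to raise, gave 0 higher and 0 lower among 6 tested, with a median difference of 0.23 over the 6 and over the 4 read in every library. Ier3, a survival factor, had 57, 47.4 and 42.3 RPM in knock-out libraries, against 25.8, 45.6 and 37.1 in wild-type libraries. Junb, a subunit of AP-1, had 268.8, 178.4 and 212.5 in knock-out libraries, against 136.7, 189.8 and 183.6 in wild-type libraries, and Ier2 had 35.5 ± 7.05 and 32.2 ± 4.14 as means of knock-out and wild-type (SD; n = 3 a group). In RPM, as with Btg2 and Trp53inp1, knock-out replicate 1 was the highest of the 6 libraries for Ier3, Junb and Ddit4, and wild-type replicate 1 was the lowest. In RPKM the highest library for Trp53inp1 was wild-type replicate 2. This order, noticed after the values were seen, held for 2 of the 4 members and 3 of the 26 other genes, against 3.97% of the 5538 genes read in every library. Jun, also an immediate early gene read in every library, did not follow it. Its highest library was wild-type replicate 1 (64.9 RPM, against 34.3 to 45.2 in the other libraries). Wild-type replicate 1 also had the most macrophage marker reads (6157 RPM) and the fewest hepatocyte marker reads (34,154 RPM, against 38,583 to 71,819 in the other 5 libraries). Their part in this order was not tested. The genes of the integrated stress response gave 0 higher and 0 lower among 8 tested, with a median difference of -0.88 over the 8, 2 of them positive, and -0.03 over the 4 read in every library. Atf4, its main transcription factor, had 175.8 ± 17.9 RPM across knock-out libraries, against 200.7 ± 44 across wild-type libraries, Chac1 20.1 ± 5.58 and 21.2 ± 2.48, and Fgf21 2.27 ± 0.71 and 1.52 ± 1.2 in the same order (SD; n = 3 a group). The higher wild-type mean of Atf4 rests on wild-type replicate 1, with 250.75 RPM against 168.45 and 182.86 in replicates 2 and 3. The difference of Atf4 in log2(RPKM + 1) was -0.18 with all libraries. Without 1 library it ran from -0.28 (without wild-type replicate 2) to -0.03 (without wild-type replicate 1). Fgf21 had 54, 50 and 78 reads in knock-out libraries, against 6, 56 and 72 in wild-type replicates 1 to 3. Its difference in log2(RPKM + 1) was 0.57 with all libraries. Without 1 library it ran from 0.01 (without wild-type replicate 1) to 0.93 (without wild-type replicate 3).

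**Figure D4:**
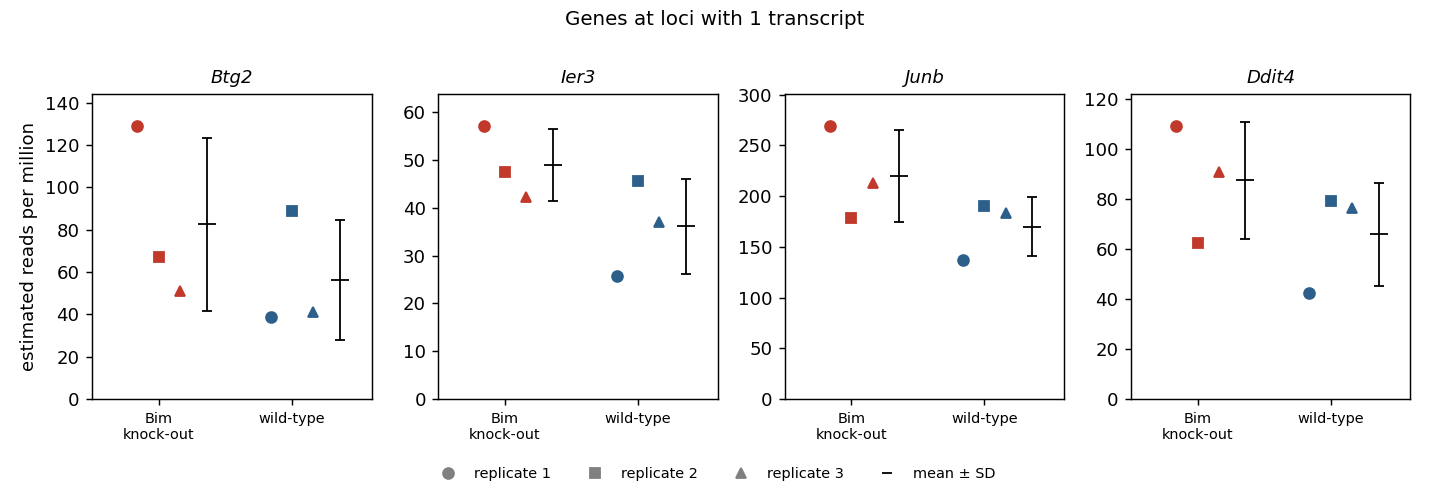
Estimated reads scaled to the library total (RPM, vertical axis) of Btg2, Ier3, Junb and Ddit4, genes at loci with 1 annotated transcript, in 3 Bim knock-out and 3 wild-type libraries; marker shape gives the replicate and bars give mean ± SD. Knock-out replicate 1 is the highest library and wild-type replicate 1 the lowest for each of the 4 genes. They were picked because they show this order, which other genes at loci with 1 transcript, such as Ier2 and Jun, do not.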

How the data were processed

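The submitters' processing notes name TopHat2 (version 2) and GRCm38 (mm10). Neither the tool behind the read assignment nor its use of strand is stated in the labels. Per transcript, the deposited files give estimated counts of reads and RPKM. Both were summed per gene, and RPM divides the reads by the library's sum. Symbols and transcript types came from GENCODE M21, promoters from RefSeq. limma (version 3.58.1, R 4.3.3; mean-variance trend, two-sided) compared log2(RPKM + 1), knock-out minus wild-type in 6 libraries, for genes averaging 1 RPKM or more. Calls needed an adjusted p (Benjamini-Hochberg) under 0.05. A second fit used the genes above 0 in all 6 libraries. The pseudocount shrinks differences of low genes. For single values an exact permutation test (two-sided, scipy 1.17.1) was run. The members and lists were chosen with earlier results of these data known. Of each other list, the text names up to 3 genes with the largest absolute difference among those above 0 in all libraries. Alternatives were the pseudocount (0.1), the filter (none, or 5 RPKM), quantile normalization, no trend, a replicate block, left-out libraries, the transcript with the highest mean, RPM, voom, zeros as missing and a threshold of 0.1. RPM with a block or a left-out library was added after seeing the data.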

Additional observations from a re-analysis of the deposited data

How the results depend on the processing

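No member was called (0) under any alternative except without wild-type replicate 1, where Trp53 was (-7.18; range without 1 library -7.18 to -3.59); the count of members ran from 0 to 1, and Bcl2l11, from -3.11 to -1.46, was called in the same fit (-3.11, adjusted p = 0.00549, limma). With zeros taken as missing Trp53 and Bcl2l11 could not be fitted, since each was at 0 in every knock-out library. That alternative therefore could not have called them. Of the 53 other pathway genes tested 0 to 2 were called without 1 library, and 1 (Atr) with the transcript with the highest mean. Those called without 1 library were Fdxr (without knock-out replicate 1), Atr and Tigar (without 2), Asns (without 3) and Crebbp (without wild-type replicate 3). Each of these genes had libraries listed at 0. Over all tested genes 87 of 11,021 were called, 182 to 207 of 11,021 without 1 library, and 0 with the replicate block. With zeros taken as missing 8677 genes could be tested and 0 were called. The sample titles do not say whether the replicate numbers pair the samples. Deviations from the group means correlated at -0.158, -0.049 and -0.005 for equal numbers, and at -0.271 to 0.312 for unequal numbers. With 3 libraries a group this cannot decide the question. Since each replicate number occurs in both groups, the block cannot change the differences, only their standard errors. These were 0.23 for Cdkn1a, 0.19 for Ccng1, 1.01 for Trp53inp1 and 0.46 for Btg2 with the block. Without it they were 0.20, 0.24, 0.86 and 0.47 in the same order. With the block 0 members were called. Direction turned without 1 library for Cdkn1a (-0.18 to 0.14; in RPM -0.098 to 0.22), Trp53inp1 (-0.10 to 1.36), Mdm2 (-3.57 to 0.66, and 0.66 with zeros taken as missing), Daxx (-0.81 to 0.22), Sfn (-0.42 to 0.052), Ddb2 (-0.035 to 0.33), Perp (-0.036 to 0.24), Tnfrsf10b (-0.012 to 0.23), Ier2 (-0.050 to 0.24) and Chac1 (-0.23 to 0.11), and for Aen with RPM (0.18) and voom (0.18). The causes were not tested. With 3 libraries a group the intervals are wide.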
